A study of Mus musculus with 4 samples.

Results

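The members described here are the immunoglobulin genes and Jchain in neutrophil RNA: the heavy chain genes (Igh), the kappa and lambda light chain genes (Igk and Igl), each divided into variable (V), diversity (D), joining (J) and constant segments, and the gene of the J chain, the protein that joins secreted IgM and IgA into polymers. They were taken by gene symbol from the table of 47729 genes, which gave 396 genes: 217 of the heavy chain, 166 of kappa, 12 of lambda and Jchain. The family was selected on its FPKM in this same comparison of wild-type with Mif KO libraries, whose earlier results were known, so the levels of the members in wild-type and Mif KO libraries are a description; where a count of members past a threshold is printed, it stands beside the background and nothing is read from it.

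Neutrophils were sorted by flow cytometry from bone marrow and spleen of mice with the strain background BALB/c SKG, 8 weeks after curdlan. Curdlan is a beta-glucan that sets off arthritis in this strain. All 4 samples carry the SKG background and received curdlan. The 2 groups are wild type (2 libraries) and Mif -/- (2 libraries, called Mif KO), which lack macrophage migration inhibitory factor, a cytokine. The labels give neither age nor sex, do not give the proportion of marrow to spleen cells, and do not say whether the samples of a group came from separate mice, so spread between replicates may be technical. Wild-type libraries were run in lane 2 and Mif KO libraries in lane 1, so lane and genotype cannot be told apart.

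An antibody is made of a pair of heavy and a pair of light chains. In B lineage cells a V, a D and a J segment are joined by recombination in the heavy chain locus, and a V and a J segment in a light chain locus, and the joined exon is spliced to the constant exons, which set the isotype. Plasma cells, the end stage of the B lineage, transcribe these genes at very high rates and secrete the product, whereas resting B cells keep IgM and IgD in the membrane as the antigen receptor. Mature neutrophils are not known as antibody-producing cells; they bear receptors for the constant part of antibodies. In bulk RNA, fewer cells of a type and less RNA per cell cannot be told apart.

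The sequences of the J segments are shown because they are short and because most of them hold a motif, one form in the heavy and another in the light chains. All sequences below are from the GENCODE M21 transcripts on GRCm38, 5′ to 3′. Positions are those of the gene and can extend beyond the J sequence printed, as for Igkj5. The heavy J segments lie on the minus strand of chromosome 12 between Ighm and the D segments, Ighj1 at chr12:113429781-113429833 and Ighj4 at chr12:113428514-113428567. Capitals mark the heavy chain motif TGGGGNNNNGG, which encodes the tryptophan and glycine codons of the J region and was found in 4 of 4.
Ighj1: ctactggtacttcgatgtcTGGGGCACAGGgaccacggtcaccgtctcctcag
Ighj2: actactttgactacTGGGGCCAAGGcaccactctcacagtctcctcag
Ighj3: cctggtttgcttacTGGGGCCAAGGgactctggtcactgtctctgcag
Ighj4: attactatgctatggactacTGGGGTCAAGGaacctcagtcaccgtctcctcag
The kappa J segments lie on the plus strand of chromosome 6, Igkj1 at chr6:70722562-70722599 and Igkj5 at chr6:70723886-70723927, upstream of Igkc at chr6:70726435-70726966. Capitals mark the light chain motif TTNGGNNNNGG, with phenylalanine in place of tryptophan. The search read the transcript strand, and the motif was absent from Igkj3.
Igkj1: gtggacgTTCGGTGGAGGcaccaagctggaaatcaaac
Igkj2: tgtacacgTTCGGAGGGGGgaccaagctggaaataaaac
Igkj3: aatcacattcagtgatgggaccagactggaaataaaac
Igkj4: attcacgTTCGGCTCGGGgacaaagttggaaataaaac
Igkj5: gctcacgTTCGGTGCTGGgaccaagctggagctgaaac
Of the lambda J segments on the minus strand of chromosome 16, Iglj1 at chr16:19063225-19063262 was the one with the highest level.
Iglj1: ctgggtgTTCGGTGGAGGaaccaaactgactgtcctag

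Values are FPKM, fragments per kilobase of transcript scaled to library size, summed over the transcripts of a gene. The members held 0.0941% and 0.0771% of all FPKM in the wild-type libraries, replicate 1 first, and 0.0175% and 0.0196% in the Mif KO libraries; every pair of values below keeps this order. Of the 396 genes, 163 were listed at 0 in all 4 libraries, 233 were above 0 in at least 1, 139 were above 0 in all 4, and 177 had a mean over the libraries of at least 0.1 FPKM. The 2 genes on either side of that minimum were Ighv5-9-1, with a mean of 0.0995 FPKM, and Iglj3, with a mean of 0.101 FPKM. Judged by the smallest steps between low values, wild-type libraries had relative depths of 1.23 and 1 and Mif KO libraries of 5.28 and 4.83. The Mif KO libraries were therefore the deeper ones, and the members listed above 0 numbered 200 and 194 in wild type and 178 and 182 in Mif KO. Of all genes, 18329 and 18358 were above 0 in wild type and 20556 and 20557 in Mif KO. Nothing is read from the counts of members, which were chosen on these same values.

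Of the 177 genes, 132 had both Mif KO libraries below both wild-type libraries, 4 had both above and 41 overlapped. Among all 14774 genes with the same minimum mean, 23.5% had both Mif KO libraries below and 26.5% had both above, percentages given as background from which nothing is read because the comparison chose the members. The median ratio of wild-type to Mif KO means was 5.38-fold over the 177, and 0.995-fold over the genes outside the members. A limma fit covered the 10221 genes whose mean reached 1 FPKM in wild type or in Mif KO, 76 members among them. With a Benjamini-Hochberg adjusted p below 0.05 as the threshold, 14 of the 76 passed, all lower in Mif KO, where 0.186% of all genes passed as lower. Since the same comparison chose the members, and 55 of the 76 reached the minimum through wild type only (2 through Mif KO only, 19 in both), this count is no test of them. These were Ighm, Igkc, Iglc1, Jchain, Ighj3, Iglj1, Iglv1, Ighv10-1, Ighv6-6, Igkv1-110, Igkv1-117, Igkv1-135, Igkv10-96 and Igkv8-24. The count moved with the library left out, in fits where the lone sample of a genotype is assumed to vary like the pair of the other: it was 56 without wild-type replicate 1, 70 without wild-type replicate 2, and 0 without either Mif KO replicate 1 or Mif KO replicate 2. In the authors' deposited table, 288 of the 497 transcripts of the members have a p-value, and 0 have a q-value under 0.05; 81 have a p-value under 0.05, of which 75 have a fold below 1.

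The constant genes carry the isotype, and mu, the constant region of IgM, was the most abundant heavy chain. Ighm was at 82.1 and 60.0 FPKM in wild type and at 16.3 and 18.4 FPKM in Mif KO. Both Mif KO libraries lay below both wild-type libraries, and the ratio of the means was 4.11-fold. Summed over the 8 heavy constant genes the levels were 93.0, 66.6, 17.2 and 19.2 FPKM in the same order, a difference of -2.06 ± 0.25 (SE, n = 2 and 2) in log2(FPKM + 1), Mif KO minus wild type.

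Ighm makes 2 messages by a choice of 3′ end, one for the secreted and one for the membrane-bound chain, and these behaved unlike each other. The coding sequences share 1305 nucleotides and then part. The end of each is shown because the membrane-anchored message is the one used in the B cell receptor; capitals mark the part that only that form has, and the 21 lower case bases before it are common to both (chromosome 12, minus strand).
Ighm secreted: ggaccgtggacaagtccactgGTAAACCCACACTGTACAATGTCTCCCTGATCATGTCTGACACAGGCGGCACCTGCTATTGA
Ighm membrane: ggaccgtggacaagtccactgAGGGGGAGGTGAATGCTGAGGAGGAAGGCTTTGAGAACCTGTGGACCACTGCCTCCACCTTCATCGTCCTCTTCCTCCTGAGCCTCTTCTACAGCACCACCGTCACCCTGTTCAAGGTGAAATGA
The secreted form adds 62 nucleotides of its own and the membrane form adds 125, which encode the transmembrane stretch. The secreted transcript was at 77.9 and 54.4 FPKM in wild type and at 12.7 and 13.8 FPKM in Mif KO, a 4.99-fold ratio with no overlap. The membrane transcript was at 4.16 and 5.63 FPKM in wild type and at 3.51 and 4.57 FPKM in Mif KO, a 1.21-fold ratio with overlapping groups. The membrane form thus made up 5.06% and 9.38% of Ighm in wild type and 21.6% and 24.9% in Mif KO. The split between the 2 transcripts is the authors' estimate from reads that mostly cover shared exons.

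The switched isotypes were far below IgM. The IgG genes summed to 9.82 and 5.18 FPKM in wild type and to 0.751 and 0.558 FPKM in Mif KO, an 11.5-fold ratio of means. Ighg3, which encodes the subclass made early against bacterial and polysaccharide antigens, was the highest of them in wild type at 7.11 and 2.67 FPKM, and stood at 0.211 and 0.189 FPKM in Mif KO. Its ratio of means was 24.4-fold, with the wild-type libraries also unlike each other. Ighg1 was at 1.65 and 1.95 FPKM in wild type and at 0.331 and 0.280 FPKM in Mif KO. Ighg2b was at 0.743 and 0.471 FPKM in wild type and at 0.0856 and 0.0412 FPKM in Mif KO. Both had the Mif KO libraries below the wild-type libraries. Ighg2c overlapped between the groups, at 0.317 and 0.0836 FPKM in wild type and at 0.123 and 0.0470 FPKM in Mif KO. BALB/c mice carry Ighg2a in place of the Ighg2c of the C57BL/6 reference, and Ighg2b and Ighg2c are 85.9% identical in coding sequence, so reads of such genes may be divided unevenly.

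IgA, the isotype of mucosal surfaces, was at 0.986 and 1.26 FPKM in wild type and at 0.204 and 0.190 FPKM in Mif KO, a 5.71-fold ratio. The isotypes with the lowest levels were IgD and IgE. Ighd, coexpressed with membrane IgM on naive B cells, was at 0.0437 and 0.0960 FPKM in wild type and at 0.0271 and 0.0242 FPKM in Mif KO. Ighe was at 0.0267 FPKM and listed at 0 in wild type, and at 0.00623 and 0.0262 FPKM in Mif KO.

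**Figure D1:**
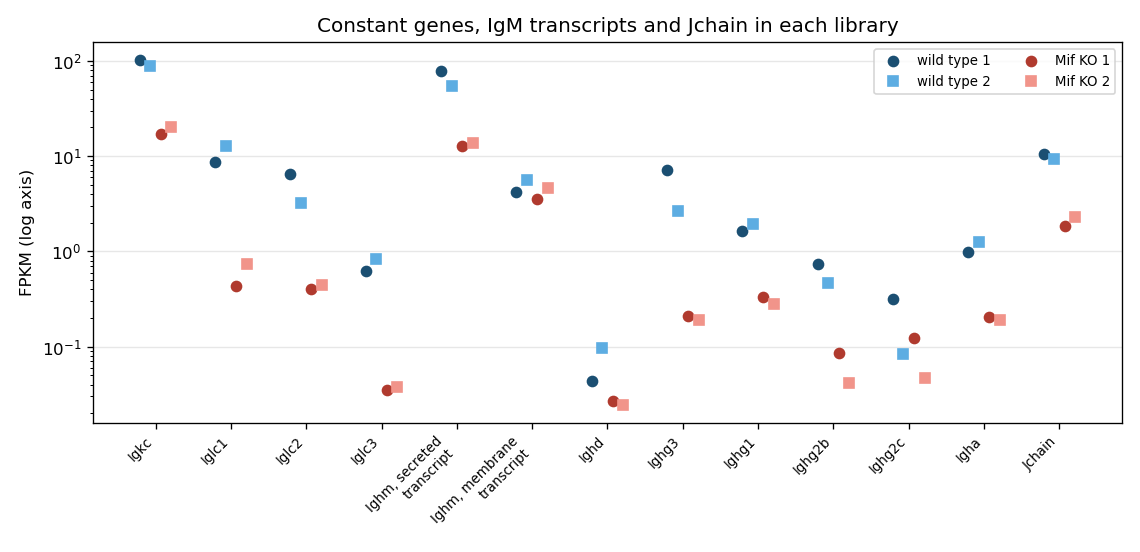
FPKM on a log axis of the immunoglobulin constant genes, the secreted and membrane transcripts of Ighm, and Jchain; each point is 1 library (circles replicate 1, squares replicate 2; blue wild type, red Mif KO). The red points lie below the blue points for each item drawn except the membrane transcript of Ighm and Ighg2c, where they overlap.

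The kappa light chain, which most mouse antibodies carry, was the most abundant of all members. Igkc was at 103 and 88.7 FPKM in wild type and at 17.3 and 20.4 FPKM in Mif KO, a 5.09-fold ratio and a difference of -2.29 ± 0.15 (SE, n = 2 and 2) in log2(FPKM + 1). The lambda constant genes summed to 15.8 and 16.8 FPKM in wild type and to 0.868 and 1.23 FPKM in Mif KO, a 15.6-fold ratio and a difference of -3.09 ± 0.13 (SE, n = 2 and 2) on the same scale. The ratio was thus larger for lambda than for kappa, a difference that was not tested.

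Lambda has several constant genes, each with its own J segment, and their sequences are shown because 2 of them are close to identical. The first 150 nucleotides of each coding sequence are given. Lower case letters are those aligned to Iglc1 without a change, capitals those that differ from it, and bases missing relative to Iglc1 are not drawn. Iglc1 lies at chr16:19061618-19062071, Iglc3 at chr16:19065230-19065681 and Iglc2 at chr16:19198396-19200351, all on the minus strand.
Iglc1: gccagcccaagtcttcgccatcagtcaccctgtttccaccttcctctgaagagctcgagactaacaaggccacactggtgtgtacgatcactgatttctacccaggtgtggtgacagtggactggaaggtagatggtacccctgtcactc
Iglc2: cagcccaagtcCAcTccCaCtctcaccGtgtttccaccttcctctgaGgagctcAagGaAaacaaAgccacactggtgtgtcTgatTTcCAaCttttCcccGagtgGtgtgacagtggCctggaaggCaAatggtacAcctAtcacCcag
Iglc3: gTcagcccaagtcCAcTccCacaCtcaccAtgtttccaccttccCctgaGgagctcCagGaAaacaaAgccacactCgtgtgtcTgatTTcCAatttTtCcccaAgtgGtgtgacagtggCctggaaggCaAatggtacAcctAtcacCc
Over the whole coding sequence, Iglc2 and Iglc3 were 95.9% identical, whereas Iglc1 was 73.4% identical to Iglc2 and 74.7% to Iglc3. Iglc1 was at 8.75 and 12.8 FPKM in wild type and at 0.433 and 0.744 FPKM in Mif KO, an 18.3-fold ratio. Iglc2 was at 6.46 and 3.19 FPKM in wild type and at 0.400 and 0.447 FPKM in Mif KO. Iglc3 was at 0.622 and 0.826 FPKM in wild type and at 0.0354 and 0.0381 FPKM in Mif KO. In all of these both Mif KO libraries lay below both wild-type libraries, and Iglc4, a constant gene listed beside Iglc2, was listed at 0 in every library. How reads matching both Iglc2 and Iglc3 were divided was not tested.

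Jchain is transcribed in cells that secrete polymeric IgM or IgA. It was at 10.6 and 9.43 FPKM in wild type and at 1.86 and 2.29 FPKM in Mif KO, a 4.83-fold ratio and a difference of -1.84 ± 0.13 (SE, n = 2 and 2) in log2(FPKM + 1). Relative to Ighm, it stayed within a narrow band: the ratio of Jchain to Ighm FPKM was 0.129 and 0.157 in wild type and 0.114 and 0.125 in Mif KO.

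Ratios within a library do not depend on its scaling. IgM made up 88.3% and 90.2% of heavy constant FPKM in wild type and 94.3% and 95.8% in Mif KO. IgG made up 10.6% and 7.79% in wild type and 4.36% and 2.91% in Mif KO. Lambda made up 13.3% and 16.0% of light constant FPKM in wild type and 4.79% and 5.69% in Mif KO. For each of these 3 shares the groups did not overlap. Within IgG, the share of Ighg3 was 72.4% and 51.6% in wild type and 28.1% and 33.9% in Mif KO. The ratio of heavy to light constant FPKM was 0.784 and 0.631 in wild type and 0.951 and 0.888 in Mif KO.

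**Figure D2:**
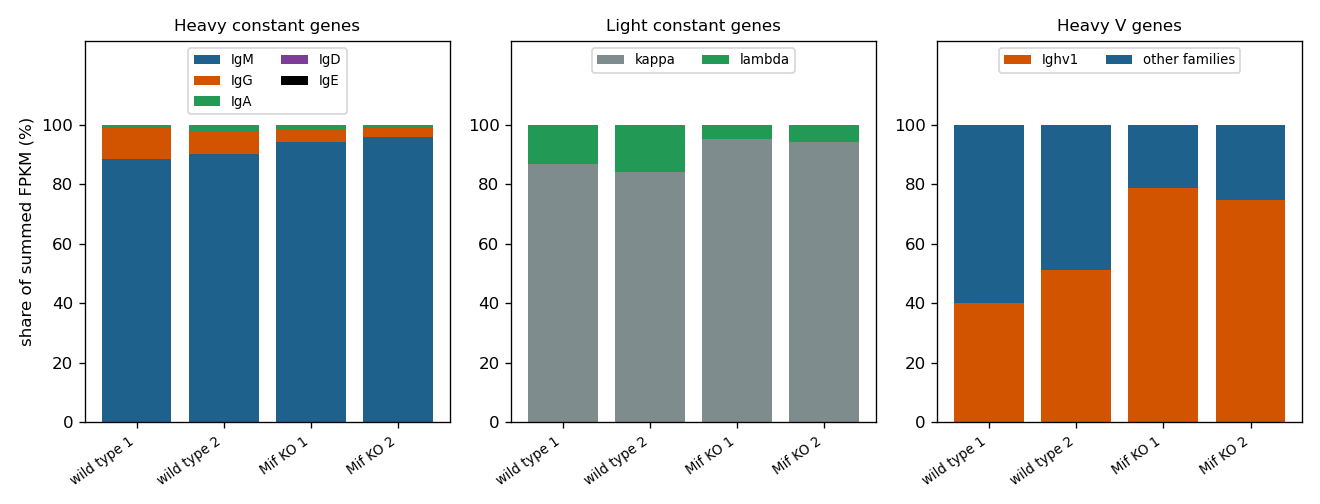
Stacked bars of the share (%) of summed FPKM in each library: isotypes among heavy constant genes (left), kappa and lambda among light constant genes (middle), and the Ighv1 family against the other families among heavy V genes (right). Lambda falls from 13.3% and 16.0% in the wild-type libraries to 4.79% and 5.69% in the Mif KO libraries, and the Ighv1 family takes 40.2% and 51.2% against 78.7% and 74.6%; IgD and IgE are too small to see.

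The J sequences printed above, between 38 and 54 nucleotides long, are shorter than the reads of 100 nucleotides. Counted in depth steps over that length, Ighj4 stood at 124, 50.1, 89.2 and 75.7 steps, whereas Ighj1 stood at 5.23 and 7.13 steps in wild type and at 26.7 and 25.9 in Mif KO, so its wild-type values are the least certain of the heavy J segments. The heavy J segments summed to 53.3 and 34.4 FPKM in wild type and to 8.62 and 8.09 FPKM in Mif KO, a 5.25-fold ratio. Ighj4 was at 22.5 and 11.2 FPKM in wild type and at 3.78 and 3.51 FPKM in Mif KO. Ighj2 was at 18.6 and 11.1 FPKM in wild type and at 1.57 and 2.04 FPKM in Mif KO. Ighj3 was at 11.3 and 10.5 FPKM in wild type and at 2.13 and 1.34 FPKM in Mif KO. These 3 segments had no overlap between the groups. Ighj1, the segment nearest to the D genes, differed from them: it was at 0.949 and 1.60 FPKM in wild type and at 1.13 and 1.20 FPKM in Mif KO, so that its share of heavy J was 1.78% and 4.64% in wild type and 13.1% and 14.8% in Mif KO.

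Among the light chains, Igkj1 was at 12 and 9.91 FPKM in wild type and at 1.25 and 2.87 FPKM in Mif KO. Igkj2 was at 2.57 and 8.19 FPKM in wild type and at 1.92 and 0.238 FPKM in Mif KO. Igkj4 overlapped, at 4.62 and 0.883 FPKM in wild type and at 0.382 and 1.66 FPKM in Mif KO. Igkj3, the kappa segment without the motif, was listed at 0 in 3 libraries and at 0.233 FPKM in wild-type replicate 2. Iglj1 was at 5.33 and 7.90 FPKM in wild type and at 0.368 and 0.769 FPKM in Mif KO. Iglj2 lies within the extent of an Iglc2 transcript, so reads over it may be counted for Iglc2, and its own values were at most 0.0238 FPKM. Of the 20 D segments, the shortest of the family, 19 were listed at 0 in all 4 libraries and Ighd4-1 was at 0.0424 FPKM in Mif KO replicate 1 alone.

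V segments give the chains their antigen-binding part, and each B cell clone uses 1 per chain. The reference is C57BL/6 and the mice are BALB/c, whose heavy chain locus holds other V alleles, so a V symbol names the reference segment to which reads were assigned. Of 185 heavy V genes, 70 are annotated as pseudogenes, 111 were above 0 in at least 1 library and 79 had a mean of at least 0.1 FPKM. Of 160 kappa V genes, 60 are annotated as pseudogenes, 93 were above 0 and 74 had a mean of at least 0.1 FPKM. The 3 lambda V genes all had such a mean.

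The V genes of the light chains lay lower in Mif KO almost throughout. Kappa V summed to 107 and 83.9 FPKM in wild type and to 15.2 and 17.8 FPKM in Mif KO, a 5.78-fold ratio. Of the 74 genes, 62 had both Mif KO libraries below both wild-type libraries, beside 23.5% of all genes with the same minimum mean. Igkv1-117 was at 6.88 and 11.5 FPKM in wild type and at 0.877 and 0.869 FPKM in Mif KO. It is 96.8% identical to Igkv1-110, which was at 5.55 and 5.17 FPKM in wild type and at 0.892 and 0.700 FPKM in Mif KO. Reads of this pair may be divided between them, and both showed the same separation of the groups.

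Igkv1-135 was at 4.15 and 4.13 FPKM in wild type and at 1.06 and 1.39 FPKM in Mif KO. Igkv17-127, Igkv15-103 and Igkv4-53 were instead unlike between the wild-type libraries, with replicate 1 the higher. Igkv17-127 was at 5.02 and 1.00 FPKM in wild type and at 1.52 and 0.963 FPKM in Mif KO, with overlap. Igkv15-103 was at 6.14 and 1.69 FPKM in wild type and at 0.188 and 0.199 FPKM in Mif KO. Igkv4-53 was at 4.78 and 2.13 FPKM in wild type and at 0.0743 and 0.194 FPKM in Mif KO.

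Chosen after their values were seen, 2 kappa V genes were each high in 1 library. Igkv3-7 was at 3.99 FPKM in wild-type replicate 2, against 0.0956 FPKM in wild-type replicate 1 and 0.335 and 0.375 FPKM in Mif KO. Igkv9-124 was at 1.65 FPKM in Mif KO replicate 2, against 0.430 FPKM in Mif KO replicate 1. In wild type it was at 0.183 and 0.225 FPKM. Igkv9-124 alone, among the 74 kappa V genes past the 0.1 FPKM minimum, had both Mif KO libraries above both wild-type libraries. Of the 20 kappa families, 17 had a mean of at least 0.1 FPKM, and 16 of these had both Mif KO libraries below both wild-type libraries, with a median ratio of 6.95-fold. The share over all genes is for single genes, so this count of families has no background and nothing is read from it.

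Lambda V genes are few in laboratory mice, and Iglv1 was the highest in every library. It was at 7.98 and 6.93 FPKM in wild type and at 0.928 and 1.09 FPKM in Mif KO. Iglv2 was at 4.91 and 1.83 FPKM in wild type, and at 0.199 FPKM and listed at 0 in Mif KO. Iglv3 was at 0.180 and 0.236 FPKM in wild type and at 0.0558 and 0.0801 FPKM in Mif KO. In all of these the groups did not overlap.

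Heavy V genes separated less. Their sum was 84.8 and 70.4 FPKM in wild type against 32.3 and 33.2 FPKM in Mif KO, a 2.37-fold ratio, against 4.38-fold for the heavy constant genes and 5.25-fold for the heavy J segments. Of 79 genes, 49 had both Mif KO libraries below both wild-type libraries, 3 had both above and 27 overlapped. Among all genes with the same minimum mean, 23.5% had both below and 26.5% had both above. The family Ighv1, the largest of the locus, held most of the heavy V genes that were level between the genotypes. Its sum was 34.1 and 36.1 FPKM in wild type against 25.4 and 24.8 FPKM in Mif KO, a 1.40-fold ratio, and the other families together were at 50.7 and 34.3 FPKM in wild type and at 6.87 and 8.42 FPKM in Mif KO, a 5.56-fold ratio.

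The most abundant heavy V gene over the 4 libraries, Ighv1-28, is annotated as a pseudogene and overlapped between the groups. It was at 4.81 and 5.84 FPKM in wild type and at 4.84 and 5.61 FPKM in Mif KO. Ighv1-39, the gene with the second highest mean, was at 3.71 and 5.88 FPKM in wild type and at 4.31 and 3.32 FPKM in Mif KO. Ighv1-29, also annotated as a pseudogene, was at 3.0 and 3.22 FPKM in wild type and at 4.27 and 5.05 FPKM in Mif KO, with both Mif KO libraries above. A further pseudogene chosen after its values were seen, Ighv1-41, was at 0.801 and 1.00 FPKM in wild type and at 1.29 and 1.52 FPKM in Mif KO. Nucleotides 121 to 270 of the coding sequence of both leading genes are shown because Ighv1-28 has a stop codon there, marked in capitals, at codon 58 counted from the ATG. Ighv1-28 lies at chr12:114809421-114809854 and Ighv1-39 at chr12:114914599-114915032, both on the minus strand, with the exons joined.
Ighv1-28: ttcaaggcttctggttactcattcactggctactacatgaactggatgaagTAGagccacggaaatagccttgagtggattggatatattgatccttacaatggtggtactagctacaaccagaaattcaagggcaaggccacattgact
Ighv1-39: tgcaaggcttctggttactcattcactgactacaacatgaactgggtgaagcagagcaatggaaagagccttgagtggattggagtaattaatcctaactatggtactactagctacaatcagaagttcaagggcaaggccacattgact
Both coding sequences are 351 nucleotides long and, taken whole, 92.0% identical. Ighv1-39 has no stop codon in this frame. As a share of heavy V FPKM, all pseudogenes together were 15.9% and 19.2% in wild type and 34.9% and 39.2% in Mif KO, while their summed level was 13.4 and 13.5 FPKM in wild type against 11.3 and 13 FPKM in Mif KO. Among the kappa V genes, pseudogenes held at most 0.830% of FPKM in any library.

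Ighv1-19 was at 2.26 and 3.05 FPKM in wild type, and at 2.92 FPKM and listed at 0 in Mif KO; such a 0 in the deeper libraries can be a failed estimate. Outside Ighv1, the leading heavy V genes separated by genotype. Ighv2-6 was at 5.18 and 2.41 FPKM in wild type and at 0.0981 and 0.106 FPKM in Mif KO, a 37.1-fold ratio. Ighv2-9 was at 3.34 and 2.40 FPKM in wild type and at 0.892 and 0.933 FPKM in Mif KO. Of 16 heavy V families, 13 had a mean of at least 0.1 FPKM and 11 of these had both Mif KO libraries below both wild-type libraries. As for kappa, this count of families has no background and nothing is read from it. The median ratio over the 13 was 4.28-fold, and Ighv1, Ighv13 and Ighv14 were under 2-fold.

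**Figure D3:**
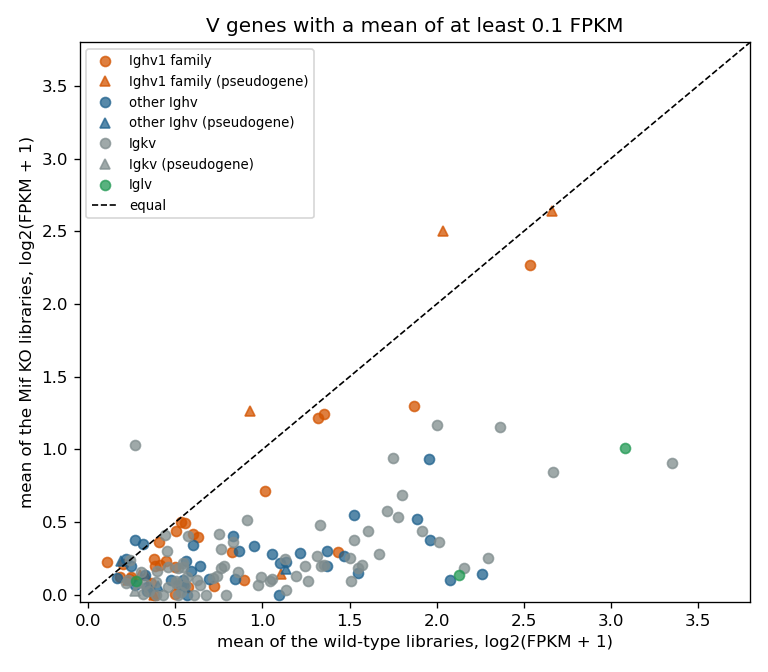
Mean of the Mif KO libraries against the mean of the wild-type libraries for the V genes whose mean over the libraries was 0.1 FPKM or more, on log2(FPKM + 1) axes; colours mark the Ighv1 family, the other heavy families, kappa and lambda, triangles mark annotated pseudogenes, and the dashed line marks equal means. A few abundant Ighv1 genes, Ighv1-28 and Ighv1-39 among them, lie near the line, while most V genes, 34 of 38 of the Ighv1 family included, lie below it.

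Ighv1 genes occupy the part of the locus far from the J segments, so family and position overlap. When the 79 heavy V genes were put in 4 groups by distance from the J cluster, the nearest (159 to 605 kb, with 0 Ighv1 genes) were 5.88-fold higher in wild type in sum. The second group (619 to 1187 kb, with 6 Ighv1 genes) was 6.15-fold higher. The third (1218 to 1765 kb, with 19 Ighv1 genes) was 1.19-fold higher, and the farthest (1779 to 2552 kb, with 13 Ighv1 genes) 1.98-fold. The third group was at 21.5 and 27.1 FPKM in wild type and at 21.2 and 19.6 FPKM in Mif KO and holds Ighv1-28, Ighv1-29 and Ighv1-39. Within the interval of the heavy V genes, chr12:113572927-116010093, 9 genes that are not members reached a mean of 0.1 FPKM, with ratios from 0.984-fold to 1.52-fold and a median of 1.36-fold.

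**Figure D4:**
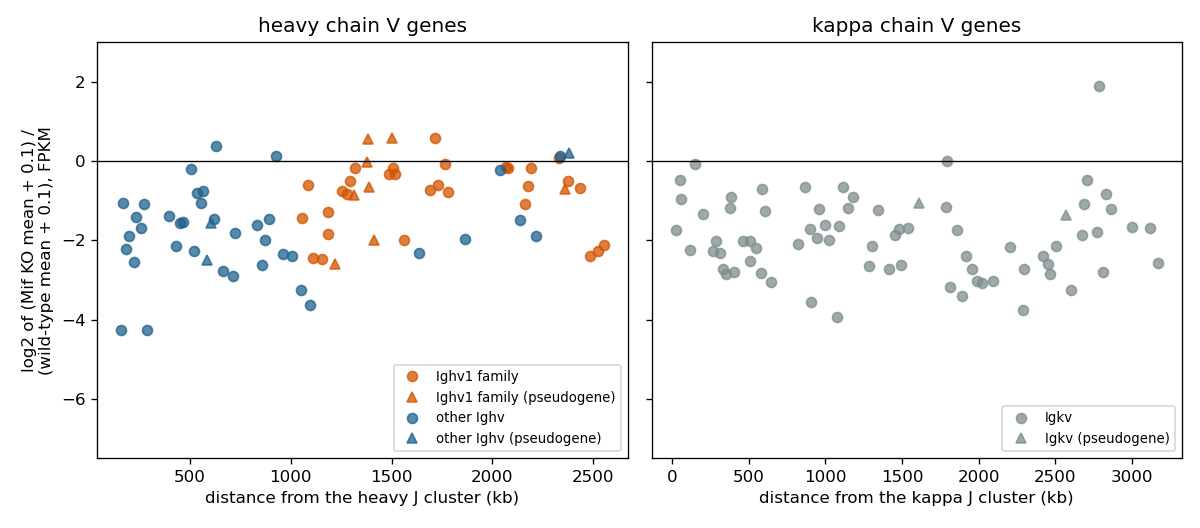
Log2 ratio of the Mif KO mean to the wild-type mean, with 0.1 FPKM added to both, against the distance in kb from the J cluster for heavy (left) and kappa (right) V genes whose mean over the libraries was 0.1 FPKM or more; each point is 1 gene, triangles are annotated pseudogenes and the line marks no difference. Between 1218 and 1765 kb, where 19 of 20 heavy V genes are of the Ighv1 family, many points lie near the line, while 73 of 74 kappa V genes lie below it, at all distances.

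Many V genes have a near-identical relative. The median identity of a gene to its closest relative was 92.2% in Ighv1, 92.3% in the other heavy families and 90.4% in kappa, and 15 of 38, 12 of 41 and 10 of 74 genes had a relative at 95% or more. No source used here says how reads were shared among relatives, so single V genes are less certain than sums over families.

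Single V genes also differed between libraries of the same genotype. Among heavy V genes above 0 in both libraries, the median ratio of the higher to the lower library was 1.59-fold in wild type (26 of 71 over 2-fold) and 1.42-fold in Mif KO (16 of 66 over 2-fold). Among kappa V genes it was 1.70-fold in wild type (29 of 70 over 2-fold) and 1.45-fold in Mif KO (16 of 57 over 2-fold). Heavy and kappa V levels were spread over many genes: the leading heavy V gene took 6.11% and 8.36% of heavy V FPKM in wild type (Ighv2-6 and Ighv1-39) and 15.0% and 16.9% in Mif KO (Ighv1-28 in both). The leading kappa V gene took 6.45% and 13.7% in wild type (Igkv1-117 in both) and 10.0% and 9.28% in Mif KO (Igkv17-127 and Igkv9-124). Among the 3 lambda V genes, Iglv1 took 61.1% and 77.1% in wild type and 78.5% and 93.2% in Mif KO.

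The number of V genes seen depends on depth. A floor of 3 steps at the median V length of 352 nucleotides is 0.191 FPKM in the shallowest library, wild-type replicate 2. At or above that level stood 72 and 67 heavy V genes in wild type and 27 and 36 in Mif KO, and 72 and 67 kappa V genes in wild type and 22 and 30 in Mif KO. The share of all genes above this level was not computed. The members were also chosen on these same values, so nothing is read from these counts.

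Genes of the cells that make antibodies were looked at beside the members. Of 12 plasma cell genes, 6 had both Mif KO libraries below both wild-type libraries, 0 had both above and 6 overlapped, where 23.5% of all genes with a mean from 0.1 FPKM had both below. Several of the 12 have a mean under that minimum, Sdc1 and Irf4 among those counted as below. Mzb1, a chaperone partner of antibody assembly in the endoplasmic reticulum, was at 0.535 and 0.617 FPKM in wild type and at 0.0772 and 0.0409 FPKM in Mif KO. Pou2af1, the B cell coactivator of octamer-binding factors, was at 0.375 and 0.369 FPKM in wild type and at 0.0733 and 0.0825 FPKM in Mif KO. Txndc5, a disulfide isomerase, was at 0.691 and 0.458 FPKM in wild type and at 0.116 and 0.161 FPKM in Mif KO; it was named after its values were seen, as was Pou2af1. These genes lay lower in Mif KO together with the members, at levels below the minimum for the test.

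The defining genes of the lineage were lower still. Sdc1, the plasma cell surface proteoglycan CD138, was at 0.0854 and 0.0389 FPKM in wild type and at 0.0105 and 0.0383 FPKM in Mif KO. Prdm1, the regulator of plasma cell fate, was at 0.0419 and 0.0949 FPKM in wild type and at 0.0771 and 0.0857 FPKM in Mif KO. Derl3, a factor of endoplasmic reticulum degradation, was at 0.156 and 0.0211 FPKM in wild type and at 0.0314 and 0.0143 FPKM in Mif KO. Tnfrsf17, the survival receptor BCMA, was listed at 0 in 3 libraries and at 0.0341 FPKM in Mif KO replicate 2. Summed over all 12, the list was at 54.6 and 54.8 FPKM in wild type and at 50.4 and 53.6 FPKM in Mif KO, of which Xbp1, the transcription factor of secretory capacity also used in granulocytes, made 43.4, 43.4, 41.7 and 43.8 FPKM. The 10 plasma cell genes below the test minimum summed to 2.34 and 2.35 FPKM in wild type and to 0.805 and 0.852 FPKM in Mif KO. Mzb1, Pou2af1 and Txndc5 are among these 10. The part of plasma cell RNA in the levels of the members was not tested.

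B cell surface genes were low in all libraries. Of 15, 3 had both Mif KO libraries below both wild-type libraries and 12 overlapped, a share near the 23.5% of all genes with a mean from 0.1 FPKM. Most of the 15 have a mean under that minimum, so the 2 shares are not alike and nothing is read from them. Cd79a, a signalling chain of the B cell receptor, was at 0.161 and 0.155 FPKM in wild type and at 0.0694 and 0.0763 FPKM in Mif KO. Its partner Cd79b was at 0.0789 and 0.274 FPKM in wild type and at 0.131 and 0.191 FPKM in Mif KO, with overlap. Ms4a1, the gene of CD20, was at 0.0194 FPKM in wild-type replicate 1 and 0.0214 FPKM in Mif KO replicate 2 and listed at 0 in the other two, and Blk was listed at 0 in all 4. The whole B cell list summed to 2.82 and 3.31 FPKM in wild type and to 2.75 and 2.97 FPKM in Mif KO. Most of this came from Bank1, an adaptor at 2.48, 2.21, 2.20 and 2.27 FPKM. The 14 B cell genes below the test minimum summed to 0.341 and 1.10 FPKM in wild type and to 0.547 and 0.697 FPKM in Mif KO, with overlap. The part of B cell RNA in the levels of the members was not tested either.

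**Figure D5:**
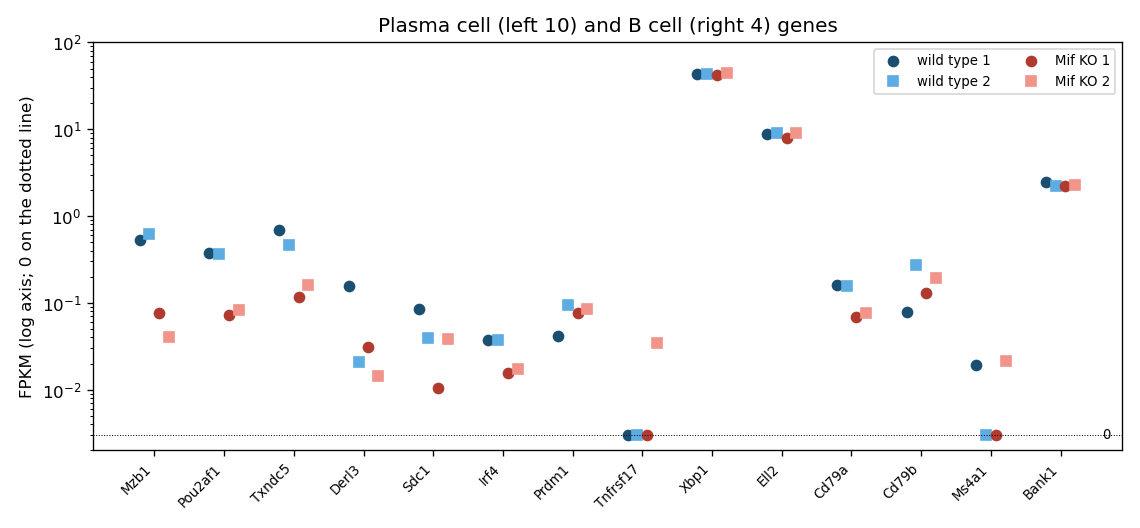
FPKM on a log axis of 10 plasma cell genes (Mzb1 to Ell2) and 4 B cell genes (Cd79a to Bank1); each point is 1 library (circles replicate 1, squares replicate 2; blue wild type, red Mif KO) and values listed at 0 sit on the dotted line. Mzb1, Pou2af1 and Txndc5 lie lower in both red libraries, while Xbp1, Ell2 and Bank1 are level across the 4.

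Recombination and surrogate light chain genes mark B cell precursors, and 5 of 8 (Dntt, Igll1, Rag2, Vpreb2 and Vpreb3) were listed at 0 in every library. Rag1 and Vpreb1 each reached at most 0.0780 FPKM. Of 13 tested genes of protein folding in the endoplasmic reticulum, 0 passed the limma threshold in either direction, where 0.342% of all genes passed. Of the 13, 11 had a lower and 2 a higher estimate in Mif KO, with a median log2 difference of -0.0844. Hspa5, the chaperone BiP, was at 47.4 and 69.4 FPKM in wild type against 46.4 and 52.3 FPKM in Mif KO. Among the 5 tested octamer and enhancer factors 0 passed, beside the same 0.342% of all genes. Tcf3, the E protein of the immunoglobulin enhancers, was at 6.05 and 6.86 FPKM in wild type and at 9.35 and 8.98 FPKM in Mif KO (limma adjusted p = 0.135).

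Of 9 listed antibody receptor genes, 5 were tested by limma, among which Fcer1g, Fcgr3 and Fcgr4 had the highest means. The 4 below the test minimum summed to 0.470 and 1.01 FPKM in wild type and to 1.10 and 1.18 FPKM in Mif KO. Pigr, 1 of these 4, was listed at 0 in every library. Fcer1g, the signalling chain, was at 441 and 479 FPKM in wild type and at 475 and 459.5 FPKM in Mif KO, with Fcgr3 at 279, 315, 304 and 324 FPKM. Fcgr4, a receptor that binds IgG2 subclasses, was at 64.0 and 59.2 FPKM in wild type and at 70.5 and 75.4 FPKM in Mif KO (limma adjusted p = 0.232). Over the 13 lists of related genes and other cell types, 50 genes were tested by limma, 0 passed at an adjusted p under 0.05, where 0.342% of all genes passed, and 7 had an unadjusted p under 0.05, which was 14% of them against 17.9% of all genes tested. Without wild-type replicate 1, 11 of them passed, and without wild-type replicate 2, 15 passed, in fits where the lone wild-type sample is assumed to vary like the Mif KO pair, whose log2 values had an SD between replicates of 0.145 against 0.337 in wild type. Among the 10 neutrophil markers, S100a8 was between 35980 and 41370 FPKM in the 4 libraries. Mpo, between 0.661 and 0.869 FPKM, and Elane, between 0.0815 and 0.839 FPKM, were low. These levels do not measure the purity of the sort. The macrophage list summed to 30.8 and 44.2 FPKM in wild type and to 36.5 and 40.8 FPKM in Mif KO. Among T cell markers Cd3d was at 62.0, 72.2, 63.9 and 64.4 FPKM, while Cd3e, Cd4 and Cd8a were each under 0.1 FPKM in every library. The erythroid list summed to 2.77 FPKM in wild-type replicate 1 and to 11.2, 10.3 and 10.2 FPKM in wild-type replicate 2 and the Mif KO libraries, lowest in wild-type replicate 1.

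Among the 10221 tested genes, the members most like Igkc over the 4 libraries were Iglv1, Ighm, Ighj2, Jchain and Igkj1, by the root mean square distance of log2(FPKM + 1) after centring each gene on its own mean, at 0.116 for Iglv1 and 0.184 for Ighm. The 5 nearest genes outside the members were Gm8741 at a distance of 0.375, Gm28037 at 0.431, Gm22133 at 0.534, H2-Ke6 at 0.589 and Gm42716 at 0.595. The first of them, a processed pseudogene, ranked 16 among all genes, behind members alone. Since the members were chosen on these same values, their place at the head of the ranking is no test of them. H2-Ke6, a gene of the major histocompatibility region, was at 2.24 and 3.66 FPKM in wild type and at 0.643 and 0.640 FPKM in Mif KO.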

How the data were processed

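RNA of neutrophils sorted from bone marrow and spleen was sequenced in 4 libraries, 2 wild type and 2 Mif KO, as paired 100-nucleotide reads after ribosomal RNA depletion, per the labels' protocols. Per the file headers, the authors deposited FPKM per transcript and library, beside a fold (ratio), p-value and q-value of each transcript. The submitters' processing notes list the build GRCm38 and, without saying what each did, StringTie 2.1.4, HISAT2 2.1.0, R 3.6.1 and SAMtools 1.9. The strand setting and the handling of reads that match several genes were not given in the sources used here.

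FPKM was summed per gene identifier over 115220 transcripts. The members and gene lists were chosen with earlier results of these data known. Genes whose mean reached 1 FPKM in wild type or in Mif KO were fitted as log2(FPKM + 1) with limma 3.58.1 in R 4.3.3 (trended empirical Bayes, no covariates, all 4 libraries) and adjusted over all genes tested, with a threshold of 0.05; the fit was tested on simulated data. The added 1 understates differences of low genes. The files give no counts; relative depth came from the steps of FPKM times length in low values (0.0181 and 0.0224 FPKM kb for the wild-type libraries, 0.00424 and 0.00463 FPKM kb for the Mif KO libraries), where 1 step stands for either a read or a fragment. Nothing says that the samples of a group are separate animals, so p-values measure the spread between these samples.

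Named were constant genes and Jchain with a mean of at least 0.1 FPKM, the 6 V genes of each chain and the J segments with the highest means or a mean of at least 1 FPKM, the leading tested genes of the lists with defining B lineage genes, and the 5 genes most like Igkc; others are said to be chosen after their values were seen, and 2 listed genes are not reported here. Sequences, positions and gene types came from GENCODE M21, which holds all 396 members, and identity was computed as edit distance over the longer sequence with edlib 1.3.9.post1. Alternatives were another pseudocount, scaling and filter, each library left out, a replicate block and a correction for GC content and length.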

Additional observations from a re-analysis of the deposited data

How the results depend on the processing

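The files hold 2 libraries a group, so counts of genes past the limma threshold move with each library. Of all tested genes 35 passed; 16 passed after scaling each library to its median, 0 without the filter on low values, 10 with GC content and length correction, and from 0 to 2938 with a library left out (0 without either Mif KO library). Of the members 14 passed; 5 after median scaling, 0 without the filter, 4 with the GC and length correction, and from 0 to 70 with a library left out. Of the related genes 0 passed, and from 0 to 15 did with a library left out. With the replicate block, 34 genes and 14 members passed. The correlation of same-numbered libraries' deviations was 0.00647, which cannot tell whether the samples were paired, and the labels do not say. Sums over V genes in place of constant genes gave log2 differences of -1.21 for heavy against -2.06, -2.46 for kappa against -2.29, and -2.45 for lambda against -3.09. With 0.1 added in place of 1, lambda was at -3.86, and Jchain at -2.22 against -1.84. Leaving out a library kept the chain differences negative, from -1.82 to -2.29 for heavy, -2.18 to -2.40 for kappa, -2.96 to -3.21 for lambda and -1.74 to -1.95 for Jchain. The shares of IgM, IgG and lambda held their direction with the largest transcript of each gene alone. Hba-a1, an erythroid gene, was at 0.0032 in log2 and at -0.61 and 0.62 without wild-type replicate 1 and 2. The cause of these shifts was not tested.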
